A study of Mus musculus with 2 samples.

Results

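The 10 mouse genes described here belong to the immediate early response: Fos, Fosb, Fosl2, Jun, Junb, Jund, Atf3, Egr1, Ier2 and Dusp1. They were taken as a named set, out of 32285 genes listed in the count matrices, and followed across cell types in barcodes that met 3 conditions: no fewer than 500 UMIs (unique molecular identifiers, each counting 1 captured RNA molecule), no fewer than 200 genes, and no more than 50% of UMIs from mitochondrial genes. All 10 were detected in both libraries. The study examined mouse kidneys injured by clamping 1 renal artery and then letting blood return, at day 14 after the injury, by droplet-based single-cell RNA sequencing of 3′ ends. The control library came from Cre- mice. The haplodeficient library came from mice of the genotype Cdh5-CreERT2; Phd3f/+, in which 1 floxed allele of Phd3 can be recombined after tamoxifen in cells that use the promoter of Cdh5, an endothelial cadherin. Phd3 is the older name of Egln3, which encodes an oxygen-sensing prolyl hydroxylase. Both groups received 4 tamoxifen injections and carry the same batch number, and the labels give 1 library per group. Whether the Cre- mice carried the floxed allele, and how many animals went into a library, is not stated in the labels. With 1 library per group there is no replicate check of any difference between the genotypes, so no p-values are given. Intervals are exact Poisson intervals for UMI counts and exact Clopper-Pearson intervals for shares of cells, at the 95% level, and cover counting error only.

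Immediate early genes are transcribed within minutes of a stimulus, before new protein is made, because the factors that switch them on are already present and need only be phosphorylated, often by MAP kinases. Products of the Fos genes pair with products of the Jun genes to form AP-1, a dimeric transcription factor, and Atf3 is a related bZIP protein induced by stress that can pair with Jun proteins. Egr1 is a zinc finger transcription factor, Ier2 a small nuclear protein, and Dusp1 a phosphatase that dephosphorylates MAP kinases and so limits the signal that induces the others. In kidney, AP-1 and Atf3 are well known to be induced by ischaemia, and in single-cell work the same genes are also known to respond to enzymatic dissociation of the tissue. Both suspensions here were made with the same enzymatic tissue dissociation kit, followed by straining and lysis of red cells. How much of any level arose during dissociation was not tested.

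After filters, 8737 cells of the control library and 9222 cells of the haplodeficient library were retained, holding 106926054 and 93610831 UMIs. The median cell held 8762 UMIs in the control library and 5472 UMIs in the haplodeficient library, and mitochondrial transcripts made up a median of 10.2% and 2.69% of its UMIs. Of the barcodes past the UMI and gene minimums, 30 had the same sequence in both libraries. Clusters were named from marker genes, and 15 classes held no fewer than 50 cells in each library. Another 5 clusters of that size had no name and are called by their leading genes. Levels are given as CPM, the UMIs of a gene over all UMIs of the same cells, scaled so that 10000 CPM is 1% of UMIs. Where 2 values stand together, the first is the control library and the second the haplodeficient library. Endothelial cells, the class the Cre driver targets, held the endothelial markers Pecam1 at 978 and 914 CPM and Cdh5 at 674 and 689 CPM. In them Egln3 stood at 25.2 CPM (43 UMIs) in the control library and 23.4 CPM (99 UMIs) in the haplodeficient library, levels whose intervals overlap. Reads were taken from 3′ ends and the labels do not say which exons the floxed allele loses, so this level does not check the deletion.

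RefSeq promoter windows of build GRCm38.p6, matched by gene symbol, were used for 8 of the 10 genes. The 250 bases before the annotated start were searched. The windows of Fos, Fosb, Atf3 and Dusp1 are shown because each gene had a ratio of more than 2-fold between the libraries in a named class and its window holds a cyclic AMP response element or its shorter site, and that of Jun because it holds an AP-1-like site. Jund and Fosl2 also had a ratio of more than 2-fold in a named class, but their windows hold none of these sites. Junb holds the shorter site without such a ratio. Capitals mark matches, and each sequence runs 5′ to 3′ on the strand of its gene.
Fos (chr12:85473640-85473889, plus strand): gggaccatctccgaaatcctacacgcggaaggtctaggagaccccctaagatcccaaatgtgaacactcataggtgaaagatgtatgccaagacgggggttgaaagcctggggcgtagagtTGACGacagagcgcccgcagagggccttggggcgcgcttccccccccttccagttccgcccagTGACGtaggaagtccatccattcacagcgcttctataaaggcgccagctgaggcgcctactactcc
Fosb (chr7:19310046-19310295, minus strand): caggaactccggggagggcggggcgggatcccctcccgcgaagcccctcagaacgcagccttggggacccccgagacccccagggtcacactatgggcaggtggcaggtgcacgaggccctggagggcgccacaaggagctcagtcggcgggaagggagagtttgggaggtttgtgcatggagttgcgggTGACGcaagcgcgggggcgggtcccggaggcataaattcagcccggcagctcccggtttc
Jun (chr4:95052223-95052472, minus strand): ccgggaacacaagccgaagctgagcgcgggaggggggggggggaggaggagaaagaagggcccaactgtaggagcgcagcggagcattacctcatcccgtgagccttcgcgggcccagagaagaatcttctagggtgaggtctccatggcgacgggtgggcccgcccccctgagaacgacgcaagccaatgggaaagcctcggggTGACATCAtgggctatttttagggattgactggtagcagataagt
Atf3 (chr1:191183334-191183583, minus strand): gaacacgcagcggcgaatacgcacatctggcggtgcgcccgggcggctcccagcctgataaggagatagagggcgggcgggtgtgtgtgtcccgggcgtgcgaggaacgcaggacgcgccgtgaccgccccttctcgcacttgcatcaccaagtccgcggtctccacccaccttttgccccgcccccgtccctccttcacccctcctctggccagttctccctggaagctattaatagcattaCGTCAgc
Dusp1 (chr17:26508473-26508722, minus strand): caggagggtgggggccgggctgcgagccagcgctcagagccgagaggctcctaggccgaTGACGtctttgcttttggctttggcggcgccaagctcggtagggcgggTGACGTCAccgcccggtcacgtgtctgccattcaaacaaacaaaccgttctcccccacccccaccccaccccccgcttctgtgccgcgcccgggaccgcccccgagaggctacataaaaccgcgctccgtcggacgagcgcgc

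The motifs searched, on both strands, were the cyclic AMP response element TGACGTCA, its shorter site TGACG, the AP-1 site TGANTCA, and the CArG box bound by serum response factor. Each full cyclic AMP response element also counts as a shorter site on each strand. The shorter site was present in 5 of 8 windows (62.5%), those of Fos, Fosb, Junb, Atf3 and Dusp1, against 17.7% of all 32817 promoter windows of the same length. Fos held it at positions -129 to -125 and -66 to -62 from the start, Fosb held it at -60 to -56, and Atf3 held it on the opposite strand at -7 to -3. The full TGACGTCA was found in Dusp1 alone, at -143 to -136, against 1.55% of all windows. Jun held the AP-1-like letters TGACATCA at -45 to -38, a motif searched after the sequences had been seen, which 2.93% of all windows hold. TGANTCA was in 0 of 8 windows and in 6.75% of all windows, and the CArG box in 0 of 8 and in 1.47%. Windows of Egr1 and Ier2 were not searched, so the shares out of 8 do not cover these genes. No match says only that these letters are not in this window, and no binding was measured.

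The genes lie on 8 chromosomes and all 10 are protein coding. In the GENCODE M21 annotation of mm10, Fos is at chr12:85473890-85477273, Jun at chr4:95049034-95052222, Atf3 at chr1:191170296-191218039 and Dusp1 at chr17:26505590-26562128. The windows shown for Atf3 and Dusp1 lie inside these last 2 spans, so they stand before a start site within the annotated gene and not before its outermost one. The window searched for Fosl2 (chr5:32136222-32136471) also lies inside its annotated gene, which starts at 32135801. That of Jund (chr8:70697489-70697738) ends short of the annotated start at 70698949 and does not adjoin it. Junb and Ier2 share chromosome 8 with Jund, and Junb and Ier2 are 311632 bases apart. Jun, Jund and Ier2 are annotated with 1 exon each.

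The summed level of the 10 genes differed several-fold between cell classes of the same library. In the control library it was 19986 CPM in the pericyte or smooth muscle class, 19458 CPM in endothelial cells and 17293 CPM in the descending thin limb, or 2.00%, 1.95% and 1.73% of all UMIs. It stood between 12446 and 9619 CPM in intercalated cells, fibroblasts, neutrophils, principal or connecting tubule, distal convoluted tubule, thick ascending limb and macrophages, in that order. The injured tubule class, which carried the injury marker Havcr1, reached 8479.6 CPM. The lowest sums were 5641 CPM in dendritic cells, 4115 CPM in proximal tubule, 3843 CPM in monocytes and 3675 CPM in T cells. Counting intervals of neighbours overlapped between the pericyte or smooth muscle class and endothelial cells, between fibroblasts and neutrophils, among distal convoluted tubule, thick ascending limb and macrophages, and from proximal tubule through monocytes to T cells, so those neighbours are not ordered by these counts.

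The haplodeficient library gave a like order at the top. The pericyte or smooth muscle class held 26675 CPM, endothelial cells 19691 CPM and the descending thin limb 16791 CPM. Thick ascending limb came next with 13929 CPM, where it was ninth of 15 in the control library. Monocytes were lowest at 4805 CPM, below T cells at 6166 CPM. The intervals of distal convoluted tubule and neutrophils overlapped in this library, as did those of principal or connecting tubule and fibroblasts. Spearman's rho between the class orders of the 2 libraries was 0.907 over 15 classes, given as a description. For single genes it ran from 0.786 for Fosb to 0.982 for Fosl2.

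**Figure D1:**
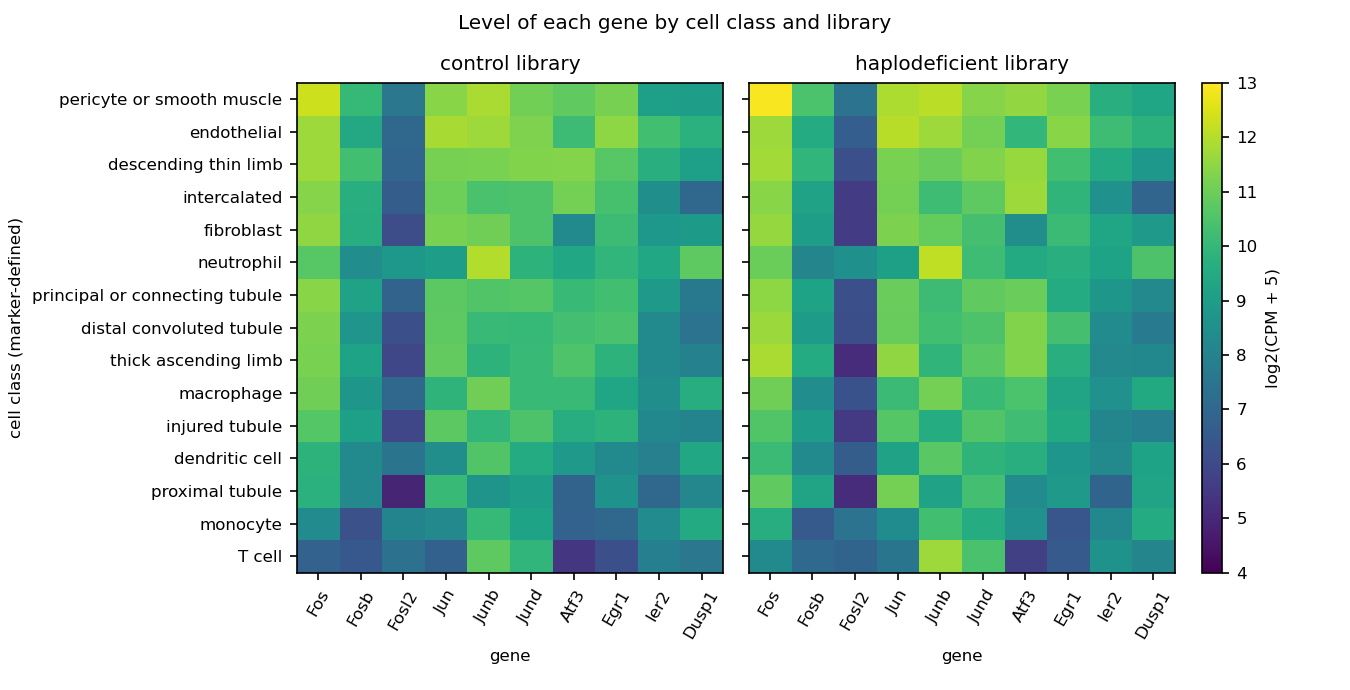
Level of each of the 10 genes, as log2(CPM + 5), in 15 marker-defined cell classes of the control (left) and haplodeficient (right) library. Fos was highest in the pericyte or smooth muscle class (5059 and 7706 CPM) and Junb in neutrophils (3986 and 4475 CPM) in both libraries.

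**Figure D2:**
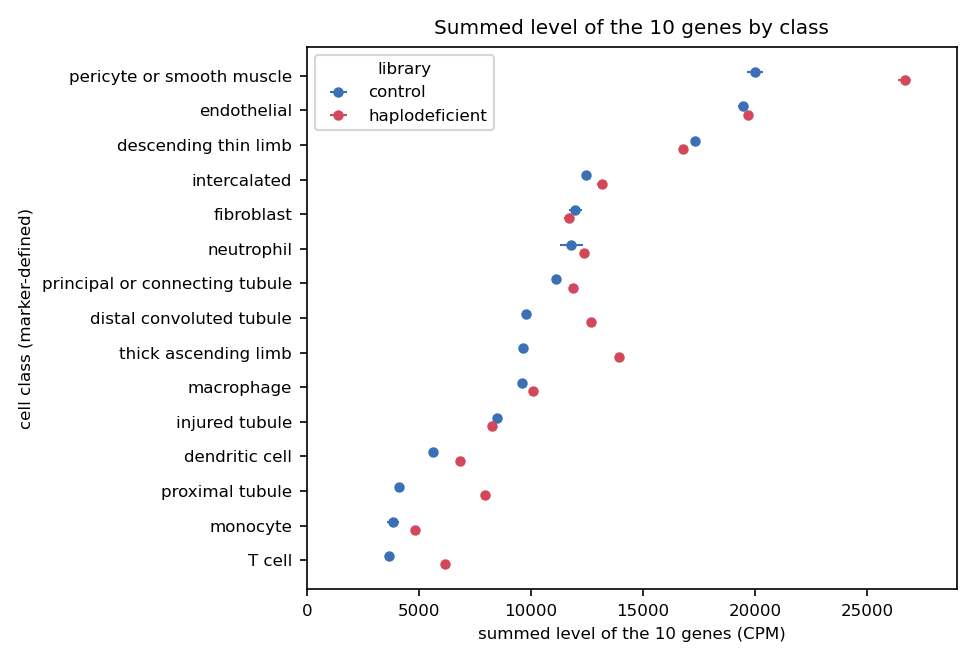
Summed level of the 10 genes in CPM by cell class, with 1 point per library and bars for the 95% Poisson interval of the UMI count. Proximal tubule (4115 and 7949 CPM), T cells (3675 and 6166 CPM) and thick ascending limb (9665 and 13929 CPM) show the widest gaps on a ratio scale.

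Among the Fos genes, Fos was highest in the pericyte or smooth muscle class, at 5059 CPM in the control library (interval 4887 to 5236) and 7706 CPM in the haplodeficient library (7551 to 7863). The descending thin limb held 3309 and 3444 CPM and endothelial cells 3257 and 3319 CPM, levels whose intervals overlapped in the control library only. Nephron classes other than the thin limb, proximal tubule and the injured class held 2307 to 2716 CPM in the control library and 2713 to 3742 CPM in the haplodeficient one. Thick ascending limb moved most within this group, from its lowest to its highest place. Proximal tubule stood lower, at 862 and 1762 CPM, and the injured tubule class at 1588 and 1497 CPM. Leukocytes covered a wide range. Macrophages held 2119.9 and 2123 CPM, neutrophils 1617 and 2012 CPM, dendritic cells 908 and 1116 CPM and monocytes 316 and 775 CPM. T cells were lowest in both libraries, at 108 and 302 CPM. The haplodeficient level was above the control level in 14 of 15 classes, in 10 of 15 when CPM was taken over genes other than mitochondrial ones, and in 8 of 15 when cells were matched on mitochondrial share as described for proximal tubule.

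Fosb, whose protein replaces Fos in some AP-1 dimers, was highest in the descending thin limb of the control library (1229 CPM) and in the pericyte or smooth muscle class of the haplodeficient library (1410.0 CPM). Its lowest levels were in monocytes, at 70.8 and 89.7 CPM from 17 and 165 UMIs. The direction between libraries was mixed, with the haplodeficient level higher in 9 of 15 classes in 7 over genes other than mitochondrial ones and in 4 with matched mitochondrial share.

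Fosl2, which encodes the Fos-related protein Fra-2, had another distribution. Neutrophils held most, at 436 and 365 CPM, followed by monocytes at 262 and 169 CPM and the pericyte or smooth muscle class at 186 and 167 CPM. Proximal tubule (25.3 and 30.4 CPM) and thick ascending limb (55.7 and 30.4 CPM) were at the low end. It passed the minimum for a ratio, set at a mean of 50 CPM over both libraries and 30 UMIs in all, in 12 of 15 classes. In those 12 the haplodeficient level was lower each time, with a median log2 ratio of -0.56. The gap was widest in intercalated cells, at 95.4 CPM against 44.0 CPM (156 and 48 UMIs). Intervals overlapped in 4 of the 12, namely distal convoluted tubule (67.9 and 66.2 CPM), fibroblasts, neutrophils and the pericyte or smooth muscle class. In macrophages it was 124 against 72.2 CPM. Over 21 alternative settings 251 ratios of Fosl2 were formed and all but 2 were below 0, both exceptions coming from thinning each cell to 1000 UMIs. Each ratio compares the same 2 libraries, so the classes are not independent replicates of this direction.

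The Jun genes encode the other part of AP-1. Jun was highest in endothelial cells, at 3582 CPM (3493 to 3673) in the control library and 4224 CPM (4162 to 4286) in the haplodeficient library, and lowest in T cells at 106 and 175 CPM. Its haplodeficient level was higher in 14 of 15 classes, in 12 over genes other than mitochondrial ones, in 13 with each class scaled by the median ratio of its genes, in 12 after thinning and in 8 with matched mitochondrial share. Intervals of the libraries overlapped in 5 classes, the descending thin limb, fibroblasts (2333 and 2373 CPM), intercalated cells, monocytes and neutrophils. The injured tubule class was the exception in direction, at 1681 and 1565 CPM. Its clusters went opposite ways, with Jun at 1631 and 1429.8 CPM in the one led by Havcr1 and at 1805 and 2059.7 CPM in the one led by Serpina1f and Slc7a12. The summed level was 7585 and 6741 CPM in the first and 10741 and 13811 CPM in the second, which held 148 control and 50 haplodeficient cells. Thick ascending limb (1823 and 2889 CPM) and dendritic cells (341 and 581 CPM) were among the classes with the widest gaps.

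Junb, which can hold back Jun activity on some promoters, was highest in neutrophils and in cells of the vessel wall. Neutrophils held 3986 and 4475 CPM, the pericyte or smooth muscle class 3744 and 4273 CPM, and endothelial cells 3255 and 3312 CPM. The first 2 of these overlapped in their intervals in both libraries. T cells, which had the lowest or second lowest level of Fos, Jun, Atf3 and Egr1, held 1729 CPM of Junb in the control library and 3286 CPM in the haplodeficient library, where only neutrophils, the pericyte or smooth muscle class and endothelial cells had more, the last with an overlapping interval. Junb was higher in the haplodeficient library in 10 of 15 classes, in 8 over genes other than mitochondrial ones and in 5 with matched mitochondrial share. Proximal tubule held least, at 399.9 and 579 CPM. Jund, known for steadier expression than the other Jun genes, had the narrowest range over classes of the 10, 4.73-fold from lowest to highest class in the control library and 3.49-fold in the haplodeficient library. The same range was 46.8-fold and 25.5-fold for Fos. The control library had its highest Jund level in the descending thin limb (2500.5 CPM) and its lowest in proximal tubule (529 CPM). Its haplodeficient level was higher in 12 of 15 classes, and in 9 with matched mitochondrial share.

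Atf3 had the widest range over classes of the 10 genes, 68.5-fold in the control library and 69.3-fold in the haplodeficient library. Its highest levels were in the thin and distal nephron and in the pericyte or smooth muscle class. The descending thin limb held 2593 and 3120.0 CPM, intercalated cells 2241 and 3258 CPM and the pericyte or smooth muscle class 1786 and 2969 CPM. Thick ascending limb followed with 1483 and 2519.9 CPM and distal convoluted tubule with 1259 and 2504 CPM. Proximal tubule, the segment next to the thin limb, held 110.2 and 317 CPM, and the injured tubule class 766 and 1218 CPM. T cells held 37.9 and 47.0 CPM, of which 47.7% and 58.3% would be expected from free RNA in the droplets. The haplodeficient level was higher in 13 of the 14 classes past the minimum, and in 12 to 14 classes under every one of the 21 alternative settings, the steadiest upward direction among the 10 genes. Endothelial cells were the exception, at 1138 and 982 CPM.

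Egr1 was highest in endothelial cells (2859.6 and 2713 CPM) and next in the pericyte or smooth muscle class (2278 and 2316 CPM). Unlike Fos and Jun it was lower in the haplodeficient library in 11 of 15 classes, and in 9 to 13 classes over the alternative settings. Among these classes were principal or connecting tubule (1235 and 732 CPM), the injured tubule class (908 and 699 CPM) and intercalated cells (1316 and 936 CPM). Dendritic cells ran the other way, at 306 and 416 CPM. Ier2 was highest in endothelial cells at 1228 and 1175 CPM and lowest in proximal tubule at 128 and 113 CPM, and its ratios split 7 above and 8 below 0.

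Dusp1 had its highest levels in neutrophils and endothelial cells. Neutrophils held 1739 and 1435 CPM and endothelial cells 862 and 883 CPM, against 123 and 117 CPM in intercalated cells, its lowest class. Macrophages (776 and 694 CPM), monocytes (712 and 736 CPM) and dendritic cells (655 and 588 CPM) came next in the control library. Proximal tubule moved from 281 CPM in the control library to 599 CPM in the haplodeficient library, a level whose interval overlapped that of dendritic cells there. The haplodeficient level was higher in 8 of 15 classes, a count that ran from 3 to 10 over the alternative settings. Across the 30 points made by 15 classes in 2 libraries, the log2 level of Dusp1 had a Pearson r of 0.06 with that of the other 9 genes summed. Fosl2 had -0.01 and Junb 0.32, whereas Egr1, Fosb, Fos and Jund had 0.83 to 0.87 and Atf3, Jun and Ier2 0.69 to 0.73. The points share 2 libraries and are not independent. Fosl2, Junb and Dusp1 had in common that neutrophils were their highest class by value in both libraries.

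Between the libraries, a ratio counted as large when the log2 ratio of (CPM + 5) was no smaller than 1 in size and the Poisson intervals did not overlap. Of 150 pairs of gene and class, 146 passed the minimum. Of these, 8 were large and higher in the haplodeficient library (5.48%), against 0.911% of the 50371 such pairs over all genes. In the other direction 1 pair was large (0.685%), against 1.29%. The 8 higher pairs fell in 3 classes, with 5 in proximal tubule, 2 in monocytes and 1 in T cells. The lower pair was Fosl2 in intercalated cells, where 0.819% of all genes passed in that direction. It was past the rule in 18 of 21 alternative settings. Without regard to size, 91 of 146 pairs were above 0 (62.3%), against 52.8% over all genes. For a list of housekeeping genes the share above 0 was 64.4% of 132 pairs, and for heat shock genes 59.6% of 151 pairs. No ratio of Jun, Junb, Egr1 or Ier2 was large in a named class.

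The summed level of the 10 genes was higher in the haplodeficient library in 12 of 15 classes, with a median log2 ratio over classes of 0.09, and lower in the descending thin limb (-0.04), fibroblasts (-0.03) and the injured tubule class (-0.04). It was above 0 under every alternative setting in T cells, monocytes, macrophages, proximal tubule, thick ascending limb and distal convoluted tubule, and changed sign under at least 1 setting in the remaining classes with higher sums. The median of all tested genes was itself off 0 by more than 0.1 in proximal tubule (0.20) and distal convoluted tubule (0.11). With each class scaled by the median ratio of its genes, the log2 ratio of the sum was 0.74 in place of 0.95 in proximal tubule and 0.26 in place of 0.38 in distal convoluted tubule. Over all retained cells the sum was 8436 and 12521 CPM, or 0.844% and 1.25% of UMIs, a log2 ratio of 0.57. In that pooled comparison 1 gene was large, Atf3 at 868 and 1870.2 CPM, where 3.58% of all genes passed. The pooled value also carries the mix of classes, since proximal tubule made up 32.7% of control cells and 3.48% of haplodeficient cells. Endothelial cells, which the Cre driver targets, had sums whose intervals overlapped, 19458 CPM (19249.8 to 19669) in the control library and 19691 CPM (19558 to 19825) in the haplodeficient library. In this class 5 genes were above 0 and 5 below, and over 21 alternative settings the log2 ratio of the sum ran from -0.16 to 0.08. The class leaves out an unnamed cluster led by Cldn5, Ptn and Lef1, which carried endothelial markers and had a lower haplodeficient sum.

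**Figure D3:**
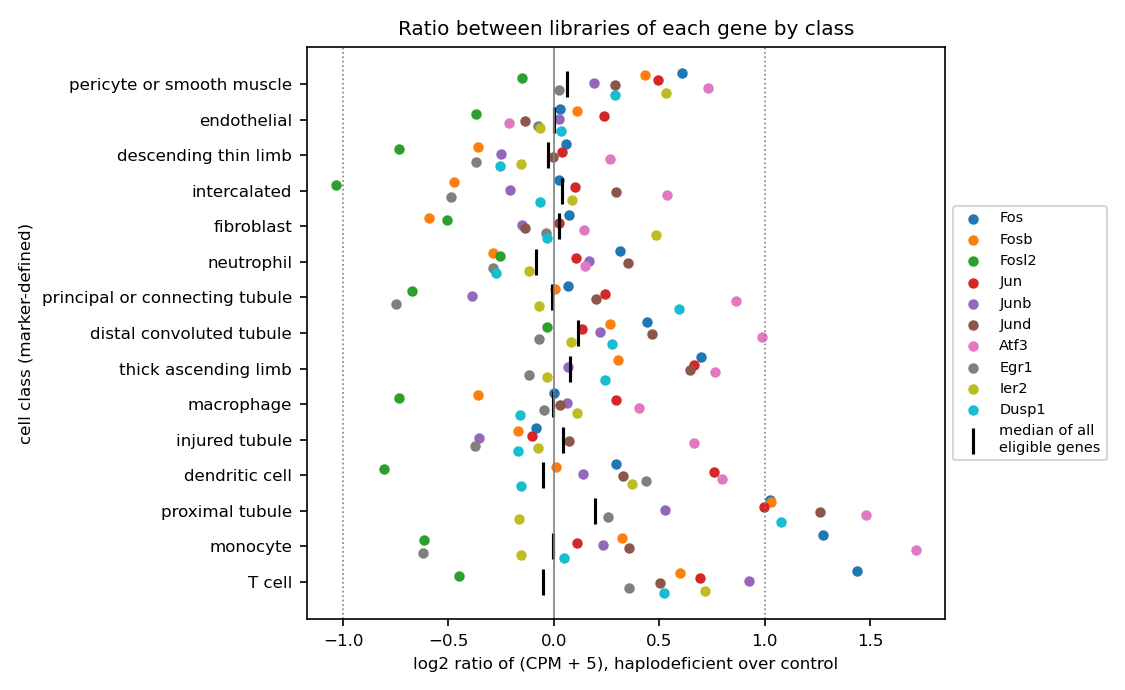
log2 ratio of (CPM + 5), haplodeficient over control, for each of the 10 genes past the expression minimum in 15 cell classes, with black ticks at the median of all eligible genes and dotted lines at 2-fold. In proximal tubule 5 of the 9 genes shown are past the size rule, and Fosl2 lies below 0 in each of its 12 classes.

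For the summed level, proximal tubule gave the widest ratio of the 15 named classes, although Atf3 in monocytes had the widest ratio of a single gene. Fos stood at 862 CPM (interval 853 to 871) in the control library and 1762 CPM (1724 to 1799.9) in the haplodeficient library, a log2 ratio of 1.03. Jund stood at 529 and 1275 CPM (1.26) and Atf3 at 110.2 and 317 CPM (1.48). Fosb (1.03) and Dusp1 (1.08) were the other 2 past the size rule, which 1.62% of all genes in this class passed in the same direction. Jun, at 1105 and 2209 CPM, fell just short of it, and Junb was 399.9 and 579 CPM. Egr1 (378 and 454 CPM) and Ier2 (128 and 113 CPM), induced by many of the same stimuli, had small ratios of opposite sign, with intervals that did not overlap between libraries. The class held 2855 control cells and 321 haplodeficient cells in 5 clusters. In the clusters led by Spp2 and Slc5a12 and by Slc13a3 and Cyp2e1 the sums were 4118 and 7429 CPM and 5339 and 10884 CPM, from 192 and 77 haplodeficient cells. The cluster led by Spp2 and Dnase1 held 818 and 858 CPM, with no such gap, from 577 and 36 cells. The remaining clusters, led by Slc7a13 and by Kap, held 10 and 6 haplodeficient cells.

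The libraries differed in these cells in other ways too. The median proximal tubule cell had 22.5% mitochondrial UMIs in the control library and 7.33% in the haplodeficient library, and within each library the 10 genes were lower in cells with more mitochondrial UMIs. In control proximal tubule the sum was 10551, 8816, 5182 and 2387 CPM in cells with under 5%, 5 to 10%, 10 to 20% and 20 to 50% mitochondrial UMIs. In haplodeficient proximal tubule it was 13667, 8378, 5164 and 1691 CPM in the same bins, from 93, 110, 93 and 25 cells. Within bins the log2 ratio between libraries was 0.37, -0.07, -0.01 and -0.50, below that of the class as a whole (0.95) in each. When the bins were given the same weight in both libraries, an alternative chosen after the data had been seen, the ratio of the sum was 0.02, and no single gene was past the size rule (Fos 0.18, Jund 0.17, Atf3 0.31). Leaving mitochondrial UMIs out of the denominator did not remove the gradient. Control proximal tubule then gave 10939, 9560.4, 6124 and 3385 CPM over the 4 bins. Other settings moved the ratio of the sum up to 1.37, when each cell counted equally. Of 21 alternative settings, Atf3 was past the size rule in 19, Jund in 18, Dusp1 in 16, Fos in 14 and Fosb in 12. A limit of 10% mitochondrial UMIs gave a ratio of the sum of 0.19.

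Thick ascending limb showed the same gradient. Its sum was 9665 and 13929 CPM (log2 ratio 0.53), with 7 of 9 genes past the minimum above 0 and none past the size rule, which 0.278% of all genes in the class passed upward. The medians of mitochondrial share were 10.6% and 4.71%. Across the 4 bins of mitochondrial share the control cells gave 13241, 11529, 7747 and 4483 CPM, and the haplodeficient cells 15739.5, 10319, 4544 and 2505 CPM. Within bins the log2 ratio was 0.25, -0.16, -0.77 and -0.84, so it was above 0 in the lowest bin only. With equal weights the class ratio was 0.01. The class was made of 2 clusters. The one led by Gabrp, Psca (on the list of urothelial markers) and Pappa2 held 10695 and 13865 CPM, and the one led by Egf, Slc12a1 and Umod, the segment's defining genes, 7474 and 14068 CPM. With 3 other seeds of the clustering, added after the data had been seen, the ratio of the class was 0.61 to 0.72. The class did not hold the same cells with those seeds. A cluster of 310 to 669 cells, with Psca and Mmp7 among its leading genes, was then unnamed. A shallow cluster of 409 to 421 cells led by Camk1d was then in the class.

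Principal or connecting tubule had a steeper gradient in the haplodeficient library, from 13215 to 6025 CPM over the control bins and from 14559 to 2245 CPM over the haplodeficient bins. Its sum was 11133 and 11883 CPM, and the sign of that ratio (0.09) turned with equal weights of the bins (-0.24), with thinning (-0.18) and with each cell counting equally (-0.12). Most haplodeficient cells of this class, 548 of 555, were in the cluster led by Sprr2f and Spink8, while the cluster led by Aqp2 and Aqp3 held 145 control and 7 haplodeficient cells. Over all 33 bins of mitochondrial share with no fewer than 20 cells in each library, 13 of the ratios were above 0 and 20 below, with a median of -0.07. Over 39 bins of UMI depth, 28 were above 0, with a median of 0.12. The part of the mitochondrial share in the difference between genotypes was not tested.

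**Figure D4:**
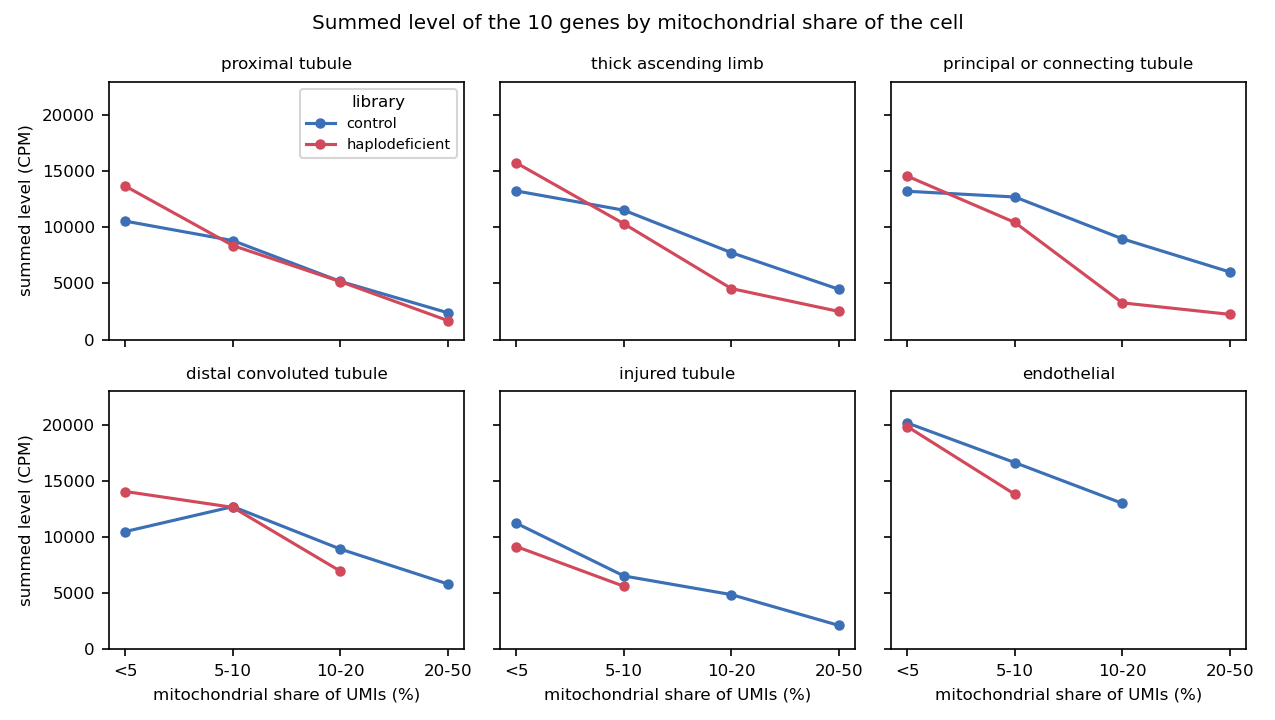
Summed level of the 10 genes in CPM (y axis) in cells binned by their mitochondrial share of UMIs (x axis, %), for 6 classes and both libraries, where a bin held no fewer than 20 cells. In thick ascending limb the control cells go from 13241 CPM in the lowest bin to 4483 CPM in the highest.

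T cells and monocytes had a lower mitochondrial share, with medians of 3.88% and 3.00% in the control library and 2.12% and 1.45% in the haplodeficient library. In T cells the sum was 3675 CPM (3517 to 3838) against 6166 CPM (6080.3 to 6253), a log2 ratio of 0.75, with 8 of 9 genes above 0 while the median of all 3115 genes tested there was -0.05. Junb stood at 1729 and 3286 CPM from 959 and 10485 UMIs, a gap just under 2-fold. Fos went past 2-fold, at 108 and 302 CPM from 60 and 963 UMIs, and 0.899% of all genes in T cells did so. It was past the rule in 21 of 21 alternative settings. Free RNA would be expected to give 41.2% and 13.3% of these Fos levels. In the 2 mitochondrial bins with enough T cells the log2 ratio of the sum was 0.79 and 0.75. The gap was also present in each of the 4 T cell clusters, among them 4432 and 7867 CPM in the cluster led by Cd40lg and Ctla4, 2912 and 4451 CPM in that led by Cd8b1 and Nkg7, and 4375 and 8722 CPM in that led by Il17a and Trdc, the last with 23 control cells. The remaining cluster, led by Hist1h2ap and Hist1h1b, held only 9 control and 45 haplodeficient cells. The class held 176 control cells and 1038 haplodeficient cells. Shallow T cells had higher sums in both libraries. Cells of 500 to 2000 UMIs held 6341 and 8555 CPM, and cells of 2000 to 5000 UMIs held 3704 and 6561 CPM.

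Monocytes had the fewest control cells of any named class, 53 against 372. Atf3 was 108 CPM on 26 UMIs in the control library (70.7 to 159) and 368 CPM on 677 UMIs in the haplodeficient library (341 to 397). Fos was 316 CPM on 76 UMIs and 775 CPM on 1424 UMIs. Both were past the size rule, which 2.13% of all genes in monocytes passed. Free RNA would be expected to give 35.5% of the control Atf3 level and 30.0% of the control Fos level, against 7.45% and 5.20% in the haplodeficient library. With every cell thinned to 1000 UMIs the Fos ratio was 0.58 in place of 1.28. The Atf3 ratio was past the rule in 20 of 20 alternative settings. Egr1 ran the other way, at 125 and 79.4 CPM with overlapping intervals.

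Macrophages and neutrophils had sums close to each other in the 2 libraries, at 9619 and 10073 CPM and 11794 and 12379 CPM, and dendritic cells had 5641 and 6817 CPM. The dendritic class is not pure. Its cluster led by Wdfy4, Xcr1 and Hist1h1b, of 85 control and 113 haplodeficient cells, also held 7 macrophage markers. With each of the 3 other seeds, a cluster of 82 cells led by Hist1h1b was named macrophage. With classes from each cell's own markers the log2 ratio of the dendritic sum was -0.056. Within macrophages the clusters differed more from each other than the libraries did in the class as a whole. The cluster led by Ccl12, Ccl8 and Mrc1 held 11402 and 14671 CPM, the cluster led by Gpnmb, Fabp5 and Trem2 held 7278 and 7173 CPM, and that led by Aif1, Ccl8 and Pf4 held 5190.2 and 1816 CPM. The last of these had 49 control and 201 haplodeficient cells and was shallow, with a median of 832 UMIs per cell over both libraries. That median was 4609 UMIs in the cluster led by Ccl12 and 10447 UMIs in the cluster led by Gpnmb. In fibroblasts the sum was 11979 and 11711 CPM with overlapping intervals. The pericyte or smooth muscle class held 19986 and 26675 CPM with 9 of 10 genes above 0, the widest ratio being that of Atf3 (1786 and 2969 CPM). Its 2 bins of mitochondrial share under 5% and from 5 to 10% had log2 ratios of 0.24 and 0.17, against 0.42 for the class.

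Vascular cells were divided among several clusters. Of the named endothelial clusters, the one led by Plvap and Rgcc held 12365 and 15446 CPM, the one led by Stmn2 and Fbln5 22971 and 22135 CPM, and the one led by Ehd3 and Kdr 20685 and 22132 CPM. An unnamed cluster led by Cldn5, Ptn and Lef1, of 99 control and 163 haplodeficient cells, had a ratio below 0. Its sum was 17061 CPM (16751 to 17376) in the control library and 11135 CPM (10935 to 11338) in the haplodeficient library, and all 10 genes were lower in the haplodeficient library. Atf3 (608 and 262 CPM) and Fosb (588 and 238 CPM) were past the size rule, which 1.52% of all genes in the cluster passed in that direction. Jund was just short of it, at 1747 and 877 CPM. The median mitochondrial share was 2.86% and 2.24%, and the ratio of the sum was below 0 in each of 12 alternative settings, from -0.68 to -0.57. Added to the endothelial class, an alternative chosen after the data had been seen, this cluster moved the endothelial ratio of the sum from 0.02 to -0.06.

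A pair of shallow unnamed clusters differed from each other in direction. The cluster led by Gm26917, Camk1d and Lars2 had medians of 1277 and 1556 UMIs per cell and mitochondrial shares of 17.7% and 8.94%. Its sum was 2178 and 5294 CPM, and 7 of 9 genes were past the size rule upward, against 10.7% of all genes there. Atf3 stood at 189 and 819 CPM from 35 and 350 UMIs, and Ier2, at 75.7 and 274 CPM, rested on 14 control UMIs. Weighing each cell equally gave a log2 ratio of the sum of 0.39 in place of 1.28. The cluster led by Cpn1 and Fbp2, with medians of 1081 and 2166 UMIs and mitochondrial shares of 18.3% and 5.20%, had a sum of 1574 and 931 CPM. Its closest class by markers was proximal tubule, with 3 markers, but it was left unnamed as shallow with no marker among its leading genes. The log2 ratio of its sum was -0.75, where that of the named proximal tubule class, which leaves it out, was 0.95. Fos was lower there, at 276 and 28.8 CPM from 128 and 10 UMIs, as were Jun (366 and 133 CPM) and Egr1 (123 and 14.4 CPM, from 57 and 5 UMIs). These 3 of 7 genes were past the size rule downward, against 3.94% of all genes in the cluster, although the median of all its genes was 0.32. The clusters led by Slc26a4 (12845 and 15955 CPM) and by Tnc and Igfbp2 (9669 and 9257 CPM) had 0 genes of the 10 past the rule, against 1.09% and 0.847% of all genes in either direction.

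Single cells of a class covered a wider range than class means did. In the descending thin limb, the share of a cell's UMIs in the 10 genes had quartiles of 0.367% and 2.41% around a median of 1.52% in the control library, and of 0.164% and 2.19% around 1.17% in the haplodeficient library. Endothelial cells had medians of 1.42% and 1.53% with quartiles of 0.390% and 2.38% in the control library and 0.288% and 2.61% in the haplodeficient library. Neutrophils were more even, with quartiles of 0.804% and 1.55% and of 0.806% and 1.62%. In principal or connecting tubule the median cell had 0.951% in the control library and 0.500% in the haplodeficient library, although the class sum was higher in the latter. The upper quartile there was 1.46% and 1.53%. In proximal tubule median and sum went the same way, with 0.249% and 0.666% in the median cell.

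**Figure D5:**
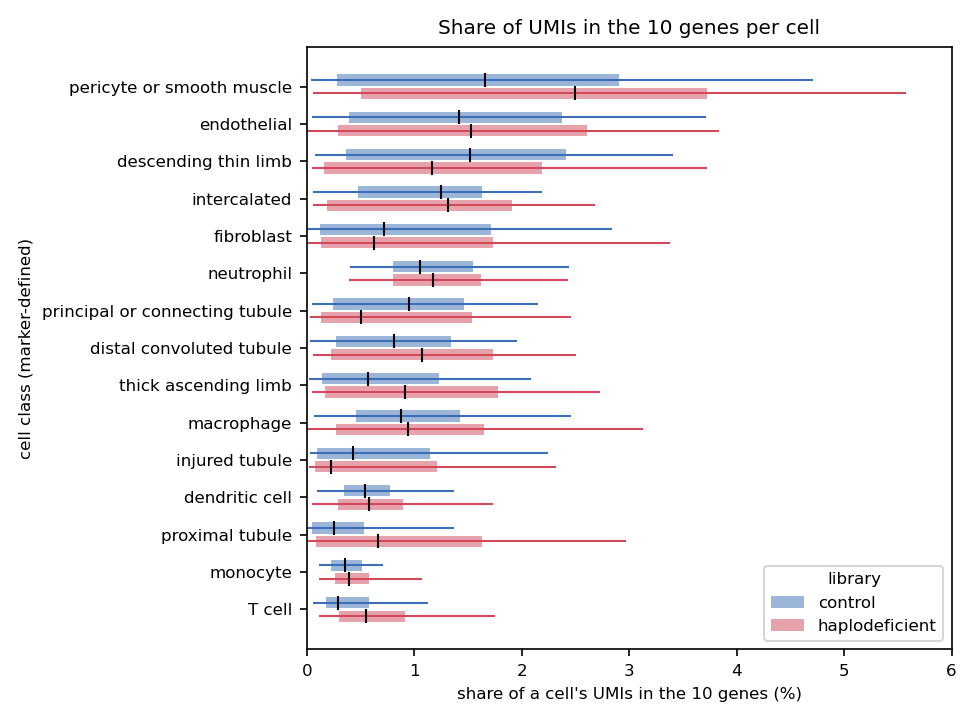
Share of each cell's UMIs in the 10 genes (x axis, %), by class and library. Boxes span the quartiles, black ticks mark the median and lines the 5th to 95th percentile of cells, and in the descending thin limb the control quartiles are 0.367% and 2.41%.

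To compare detection at equal depth, 1000 UMIs were drawn from each cell, leaving out cells with fewer. In proximal tubule Fos was detected in 1080 of 2817 control cells (38.3%, interval 36.5 to 40.2%) and 176 of 319 haplodeficient cells (55.2%, 49.5 to 60.7%), where the unthinned shares were 69.7% and 72.9%. The gap at equal depth was thus wider than the unthinned one. In T cells Fos was detected in 16 of 172 (9.30%, 5.41 to 14.7%) and 199 of 1019 (19.5%, 17.1 to 22.1%), and the unthinned shares were 22.2% and 35.3%. Junb in T cells was found in 65.7% (58.1 to 72.8%) and 83.8% (81.4 to 86.0%) of cells, from unthinned shares of 88.6% and 94.9%. Both genes were thus detected in more haplodeficient than control T cells beyond counting error. Atf3 in T cells was found in 4.65% and 4.61% of thinned cells (8.52% and 9.73% unthinned), with overlapping intervals. In the descending thin limb the thinned share of cells with Atf3 was 62.8% and 54.8% (76.9% and 65.9% unthinned). Median depth was 2702 and 2584 UMIs in T cells and 10296 and 8477 UMIs in the descending thin limb.

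Within a class the genes tended to be high in the same cells. On the thinned counts, Spearman's rho of Fos with Jun was 0.76 over 110 control fibroblasts and 0.82 over 119 haplodeficient fibroblasts, 0.64 and 0.72 in the pericyte or smooth muscle class, 0.59 and 0.66 in thick ascending limb, and 0.42 and 0.71 in proximal tubule. Fos and Atf3 were the closest pair in thick ascending limb, at 0.60 and 0.77. Neutrophils lacked this, with a Fos and Jun rho of 0.02 and -0.06 over 96 and 572 cells. Other leukocytes were low too, with a median over gene pairs of 0.07 and 0.12 in T cells, 0.10 and 0.08 in monocytes and 0.10 and 0.20 in dendritic cells. The median over pairs of the 10 genes ran from 0.04 in haplodeficient neutrophils to 0.47 in haplodeficient fibroblasts, while the median over pairs of housekeeping genes ran from -0.05 to 0.15 over the same classes and libraries. Cells of a library share its depth and preparation, so these correlations are given without a test.

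Other genes of the pathway were taken from lists and read with the same size rule over the 15 classes, where 0.911% of all pairs were large upward and 1.29% downward. Of 321 pairs of class and other immediate early gene, 10 were large upward and 2 downward (3.12% and 0.623%), and the median log2 ratio was 0.00 against 0.08 for the 10 genes and 0.03 over all pairs. Klf6, a zinc finger factor of this group, stood at 383 and 848 CPM in proximal tubule, and Ier3, a stress-induced survival gene, at 137 and 289 CPM in monocytes, both past the rule. Btg2, an antiproliferative gene, stood at 112 and 156 CPM in proximal tubule and Zfp36l1, which promotes decay of AU-rich mRNAs, at 485 and 789 CPM, and neither passed in any class. Among other bZIP genes 0 of 62 pairs were large upward and 1 downward, and Atf4, Atf2, Atf7 and Mafg had none. Upstream kinases and MAP kinase phosphatases had 2 of 77 upward and 0 downward, with 29.9% of pairs above 0. None of Mapk3, which encodes an ERK kinase, Map2k4, which encodes a kinase that phosphorylates JNK, and Dusp16, a JNK phosphatase, passed in any class.

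Genes that AP-1 is known to activate or that mark kidney injury gave 9 of 89 pairs upward (10.1%) and 3 downward (3.37%). Spp1, encoding osteopontin, was 2751 and 8748 CPM in macrophages, and Lcn2, an iron-carrier protein made by injured tubules, 1728 and 3614 CPM in distal convoluted tubule and 155 and 416 CPM in intercalated cells. Hbegf, an EGF family ligand, was 771 and 1131 CPM in thick ascending limb. Hbegf and Vcam1, an adhesion molecule, had no class past the rule.

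Heat shock genes, which also respond to stress during preparation, gave 3 of 151 upward and 1 downward, with a median log2 ratio of 0.09. All 3 upward pairs were those of Cryab, a small heat shock protein and a marker of the thin limb, at 49.2 and 253 CPM in proximal tubule, 76.2 and 272 CPM in distal convoluted tubule and 227 and 528 CPM in intercalated cells. The sum of the list was 4003 and 5016 CPM in proximal tubule, 4521 and 5422 CPM in thick ascending limb, 2992 and 3427 CPM in T cells and 5768 and 5879 CPM in endothelial cells. Heat shock sums went the same way as the sum of the 10 genes in 10 of 15 classes, among them these 4. They went the opposite way in the other 5. The list was lower in the haplodeficient library in monocytes (2823 and 2476 CPM), macrophages (3417 and 3294 CPM), dendritic cells (3952 and 3861 CPM) and neutrophils (1593 and 1556 CPM), where the 10 genes were higher, and it was higher in the injured tubule class (6231 and 6921 CPM), where they were lower. Housekeeping genes had 3 of 132 upward, 0 downward and a median of 0.14. The part of what moved these lists in the ratios of the 10 genes was not tested.

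Outside all lists, the genes whose level over the 30 points of class and library was most like that of the summed 10 were Pdlim7 (Pearson r 0.87), Pdcl3 (0.82), Pls3 (0.81), Myo1d (0.80) and Id1 (0.79), of 3685 genes with a mean of no less than 50 CPM over these points. Pdlim7 ranged from 5.11 to 123 CPM over control classes. Likeness was on log2(CPM + 5), and the points share 2 libraries.

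RNA outside cells also carried these genes. In barcodes of 1 to 100 UMIs, too few for a cell, the 10 genes summed to 5325 CPM in the control library and 8503 CPM in the haplodeficient library, against 8436 and 12521 CPM in retained cells. Fos was 1191 and 1660.2 CPM there, Junb 738 and 1577 CPM, and Egr1 549 and 524 CPM. Free RNA thus differed between the libraries in the same direction as the cells for Fos and Junb. The expected free-RNA part of the Fos level was 3.88% and 1.75% in proximal tubule and 2.23% and 2.92% in endothelial cells. With the expected part subtracted, 8 pairs of gene and class were large upward, as many as without subtraction.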

How the data were processed

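Both libraries of dissociated mouse kidney, 1 per group, were read as deposited. The deposited values are UMI counts per gene and barcode in unfiltered matrices, made with Cell Ranger 4 per the file headers. The submitters' processing notes name Cell Ranger and build mm10, and other settings are not given in the sources used here. The control matrix held 134190236 UMIs in 1342632 barcodes and the haplodeficient matrix 114668145 UMIs in 1430043 barcodes. With the minimums on UMIs and genes met by 10026 and 10056 barcodes, 8737 and 9222 cells remained after the mitochondrial limit and after removal of the cells with the highest Scrublet doublet scores, at an assumed doublet rate of 0.8% per 1000 cells.

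Both libraries were clustered together on 2000 variable genes, leaving out mitochondrial genes, the 10 genes described and the genes of the other lists, using 30 components, 15 neighbours and Leiden resolution 1, which gave 42 clusters. A cluster could be named when at least 3 markers of a class were found in at least 10% of its cells at 2-fold or more over the other cells. Further checks, on depth and on markers of a different class, left some clusters that met this minimum unnamed. The cluster led by Cldn5, Ptn and Lef1 was one of them, with 9 endothelial markers. Among its leading genes, endothelial markers were outnumbered by those of a different class. The exact scoring was set after the data had been seen. The clustering was also recomputed in 64-bit precision with rounded components after the results of a first 32-bit run had been seen, because that run depended on the last bits of its arithmetic. This moved borders between tubule classes, and the first run had given a larger proximal tubule ratio and 1 more large pair of gene and class.

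UMIs were summed per class and library, and no test between groups was possible with 1 library each. Free RNA was estimated from barcodes of 1 to 100 UMIs. The expected free part of a level assumes the same free fraction for all genes of a class, estimated from markers of other classes. Ratio and size rule were run on simulated Poisson counts with known folds. These counts hold no spread between cells, animals or preparations, so the run checks the calculation and not the rule on data like these. Every one of the 10 genes was compared in each class. At most 4 genes of every other list, those with the highest level over all cells, and 5 genes with the most similar pattern were named. A gene that this rule names is not reported here. The members and lists were chosen with earlier results of these data known. Tools were numpy 2.4.6, scipy 1.17.1, scanpy 1.11.5, leidenalg 0.10.2, scikit-learn 1.9.0 and matplotlib 3.10.9.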

Additional observations from a re-analysis of the deposited data

Results flagged for a closer look

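Some genes had a 2-fold or larger ratio between the libraries in 1 class or unnamed cluster while its ratio elsewhere was below 0 or, where the first was below 0, above it. These differences between classes were not tested, since each group had 1 library. As log2 ratios of the haplodeficient over the control library, Atf3 was at 1.72 in monocytes, 1.48 in proximal tubule and 2.08 in the cluster led by Gm26917, and at -1.20 in the cluster led by Cldn5. Fos was at 1.44 in T cells, 1.28 in monocytes, 1.03 in proximal tubule and 1.23 in the cluster led by Gm26917, against -3.05 in the cluster led by Cpn1. Fosb was at 1.03 in proximal tubule and 1.14 in the cluster led by Gm26917, and at -1.29 in the cluster led by Cldn5. Jun was at -1.43 in the cluster led by Cpn1 and 1.08 in that led by Gm26917.

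Barcodes of 1 to 100 UMIs, which are used in no comparison of cells, held the 10 genes at 8503 CPM in the haplodeficient library, above the 5325 CPM of the control library.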

How the results depend on the processing

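No paired analysis was possible because each group had 1 library, and leaving out a replicate was not run for the same reason. The 3 other clustering seeds, the matched mitochondrial bins and the addition of the Cldn5 cluster to the endothelial class were chosen after the data had been seen. Depth limits T cells, monocytes, neutrophils and the unnamed shallow clusters most, where some control levels rest on under 100 UMIs, and the free part of a level is an estimate. The causes of the shifts below were not tested.

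The number of pairs past the size rule upward was 8, and became 4 with a mitochondrial limit of 25%, 3 with a limit of 10%, 14 with no doublet removal, 5 with CPM over genes other than mitochondrial ones, 5 with median-of-ratios scaling and 3 with matched mitochondrial bins. The number downward was 1, and became 2 with a mean over cells, 0 with a pseudocount of 20 CPM and 0 with classes from each cell's own markers. The median log2 ratio of the sums was 0.09 and stayed above 0. It was 0.016 with matched mitochondrial bins, 0.044 over genes other than mitochondrial ones, 0.066 with free RNA subtracted, 0.081 and 0.079 with mitochondrial limits of 25% and 10%, 0.12 with all variable genes or with own markers, 0.13, 0.14 and 0.14 with the other seeds, 0.14 at resolution 2, 0.16 with median-of-ratios scaling, 0.17 with no doublet removal or a mean over cells, 0.21 after thinning and 0.21 with clusters weighted alike. Spearman's rho of the class order was 0.907, and was 0.857 with no doublet removal, 0.889 at resolution 2 and with all variable genes, 0.895 with own markers, 0.896 after thinning, 0.900 over genes other than mitochondrial ones, 0.904 with the second other seed, 0.929 with the 10% limit and 0.954 with matched bins. Fosb in proximal tubule changed sign, to -0.083 with the 10% limit and -0.072 with matched bins. Fos in the cluster led by Gm26917 went to -0.0070 with a mean over cells.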
